A study of Mus musculus with 30 samples.

Results

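DNA replication and mitosis genes were followed through sorted cells of the mouse stomach. The set holds 54 genes of 25942 named genes. It was given as a fixed list of symbols, of which 27 act in DNA replication (the S phase members) and 27 in mitosis (the mitotic members). All 54 were found in the antrum and the corpus tables. RNA-seq was done on 30 libraries, in 10 groups of 3, from the antrum (also called pylorus), the distal stomach, and the corpus, its acid-secreting body. Lgr5-DTR-GFP mice, which mark cells that express the stem cell gene Lgr5, gave Lgr5-positive and Lgr5-negative antral cells. The corpus of the same line gave EpCAM-high Lgr5-positive, EpCAM-low Lgr5-positive and Lgr5-negative cells. Sox2-Tomato mice, in which a red protein reports the transcription factor Sox2, gave antral cells in 3 gates (Sox2-high, Sox2-low, Sox2-negative) and corpus cells that were Sox2-positive or Sox2-negative. The genotype label of every sample is WT, while the sample titles name a reporter line for every group. No treatment is given. The sources used here state neither the age of the mice nor how many were pooled for a sort, and p-values then measure the spread between these sorts, which may be technical. For the 3 corpus Sox2-positive libraries another label field reads Sox2_low.

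The sort genes followed the labels. Lgr5 had 5727, 4186 and 2767 normalized counts in antral Lgr5-positive cells and 66.3, 196 and 321 in Lgr5-negative cells. Epcam had 28010, 38870 and 30720 normalized counts in EpCAM-high cells, 9133, 7163 and 7089 in EpCAM-low cells and 15940, 14690 and 14650 in corpus Lgr5-negative cells. Sox2 had 1355, 3628 and 2849 normalized counts in Sox2-high cells, 374, 662 and 709 in Sox2-low cells and 36.6, 442 and 304 in Sox2-negative cells, so Sox2-low and Sox2-negative libraries overlapped. Normalized counts are reads divided by a size factor per library, set separately for the antrum and the corpus. Libraries held 18602964 to 62312270 reads on named genes. The EpCAM-low libraries stood apart: 10 genes took 75.8 to 88.2% of their reads, against 6.47 to 46.7% in the other groups. Summed chief cell markers (4 of 5 listed, Pgc among them) took 408813 to 489213 RPM (reads scaled to a fixed library total) there, and summed epithelial markers (4 of 4) 427 to 826, against 3765 to 11711 in the other groups. Sorted cells per library ran from 1630 to 142000, with the fewest, 1630 to 3268, in the Sox2-high sorts. For 15 members (Ccna2, Ccne2, Cdc20, Cdc45, Chaf1a, Ckap2l, Fen1, Gins2, Kif20a, Mcm7, Nusap1, Plk1, Prc1, Rfc4 and Ube2c) an exon overlaps that of a gene on the opposite strand in the GENCODE annotation, and since the use of strand in counting is not stated, reads of the overlapping genes cannot be told apart.

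Before a cell divides it copies its DNA once. Origins are licensed by loading the MCM helicase (Mcm2 to Mcm7) with Cdc6 and Cdt1, and are fired with Cdc45 and the GINS complex, under cyclin E (Ccne1, Ccne2). Polymerases and their clamp (Pola1, Prim1, Pcna) then copy the strands, while cyclin B with Cdk1, the Aurora kinases, Plk1 and the kinesins later drive mitosis. Replication genes are known targets of E2F factors, and mitotic genes of the MuvB complexes with B-Myb and FoxM1. In the stomach, dividing cells are known mainly from the isthmus of the glands, while corpus chief cells, at the gland base, divide seldom.

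Promoter windows of 250 bases before the start were taken from RefSeq, build GRCm38.p6, for 46 of 54 members, 23 of each class. Capitals mark 3 motifs searched on both strands: E2F-type (TTTCCCGC, TTTCGCGC, TTTGGCGC or TTTGCCGC), CHR (TTTGAA or TTCGAA), the cell cycle homology element bound by MuvB complexes, and the CCAAT box (CCAAT). Matches may overlap. The E2F-type motif was in 34.8% of S phase members and 4.35% of mitotic members, against 2.16% of 27025 genes with a window. CHR was in 26.1% of S phase members and 43.5% of mitotic members, against 19.6% of all genes. CCAAT was in 69.6% of S phase members and 87% of mitotic members, against 37.5% of all genes. A match is a description, not a site or a cause. The 5 windows are an MCM pair with E2F-type matches (in each, 2 matches overlap), a mitotic pair with CHR and CCAAT matches, and Blm, the member whose values left its class. They lie at chr8:75109259-75109508 on the plus strand for Mcm5 and, on the minus strand, at chr1:128359706-128359955 for Mcm6, chr11:99024190-99024439 for Top2a, chr7:135716380-135716629 for Mki67 and chr7:80534999-80535248 for Blm.
Mcm5: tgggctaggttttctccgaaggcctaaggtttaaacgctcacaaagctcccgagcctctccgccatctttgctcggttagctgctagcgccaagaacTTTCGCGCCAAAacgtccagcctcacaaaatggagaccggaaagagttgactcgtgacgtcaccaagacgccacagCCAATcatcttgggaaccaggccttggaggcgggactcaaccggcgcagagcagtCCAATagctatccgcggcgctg
Mcm6: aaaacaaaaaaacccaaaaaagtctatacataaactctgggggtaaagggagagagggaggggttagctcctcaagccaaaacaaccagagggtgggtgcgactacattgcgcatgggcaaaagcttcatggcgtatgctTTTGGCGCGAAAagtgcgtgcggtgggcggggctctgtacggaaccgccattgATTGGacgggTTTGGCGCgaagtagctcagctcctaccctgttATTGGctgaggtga
Top2a: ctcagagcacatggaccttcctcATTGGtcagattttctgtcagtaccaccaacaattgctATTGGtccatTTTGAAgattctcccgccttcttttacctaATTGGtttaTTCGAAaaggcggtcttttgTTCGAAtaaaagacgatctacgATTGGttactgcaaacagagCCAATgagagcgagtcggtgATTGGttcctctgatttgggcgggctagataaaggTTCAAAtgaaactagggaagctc
Mki67: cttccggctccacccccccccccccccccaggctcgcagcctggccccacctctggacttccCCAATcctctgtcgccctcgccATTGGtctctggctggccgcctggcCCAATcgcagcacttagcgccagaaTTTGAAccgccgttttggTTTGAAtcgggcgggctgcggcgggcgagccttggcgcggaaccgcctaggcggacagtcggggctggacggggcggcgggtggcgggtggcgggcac
Blm: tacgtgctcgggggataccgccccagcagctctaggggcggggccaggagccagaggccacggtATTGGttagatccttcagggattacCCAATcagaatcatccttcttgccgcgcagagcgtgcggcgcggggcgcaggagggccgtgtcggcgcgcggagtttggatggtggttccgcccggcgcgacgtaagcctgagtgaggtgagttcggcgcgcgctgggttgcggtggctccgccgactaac

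The same gates stood at both ends of the order in either class. As a level, each member's log2(CPM + 1), with CPM the reads scaled to a common library size, was centred on its mean over the 30 libraries and averaged over the class, with scaling across both tables. For the S phase members the level was highest in antral Sox2-low (0.98 ± 0.26) and antral Lgr5-negative cells (0.98 ± 0.23), and lowest in EpCAM-low (-1.48 ± 0.24) and EpCAM-high cells (-1.49 ± 0.32; SD, n = 3 throughout). For the mitotic members it was highest in Sox2-low cells (1.43 ± 0.16), followed by antral Lgr5-negative cells (1.18 ± 0.29). The lowest were EpCAM-high (-2.38 ± 0.89) and EpCAM-low cells (-2.98 ± 0.35).

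Between these ends the groups overlapped. The S phase level was 0.35 ± 0.68 in antral Sox2-negative, 0.33 ± 0.24 in corpus Sox2-positive, 0.20 ± 0.23 in corpus Sox2-negative, 0.19 ± 0.58 in antral Lgr5-positive, 0.05 ± 0.09 in corpus Lgr5-negative and -0.10 ± 0.17 in Sox2-high cells. The mitotic level was 0.87 ± 0.43 in corpus Sox2-positive, 0.74 ± 0.47 in corpus Sox2-negative, 0.64 ± 0.69 in antral Sox2-negative, 0.26 ± 0.63 in antral Lgr5-positive, 0.16 ± 0.22 in corpus Lgr5-negative and 0.08 ± 0.06 in Sox2-high cells. In both orders every pair of neighbours overlapped except one: Sox2-high, the lowest of the 8 upper groups, lay above every EpCAM-sorted library. The wide spread of antral Sox2-negative and Lgr5-positive cells came with sort day 1, whose libraries were lowest (all-member levels -0.20 and -0.45).

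**Figure D1:**
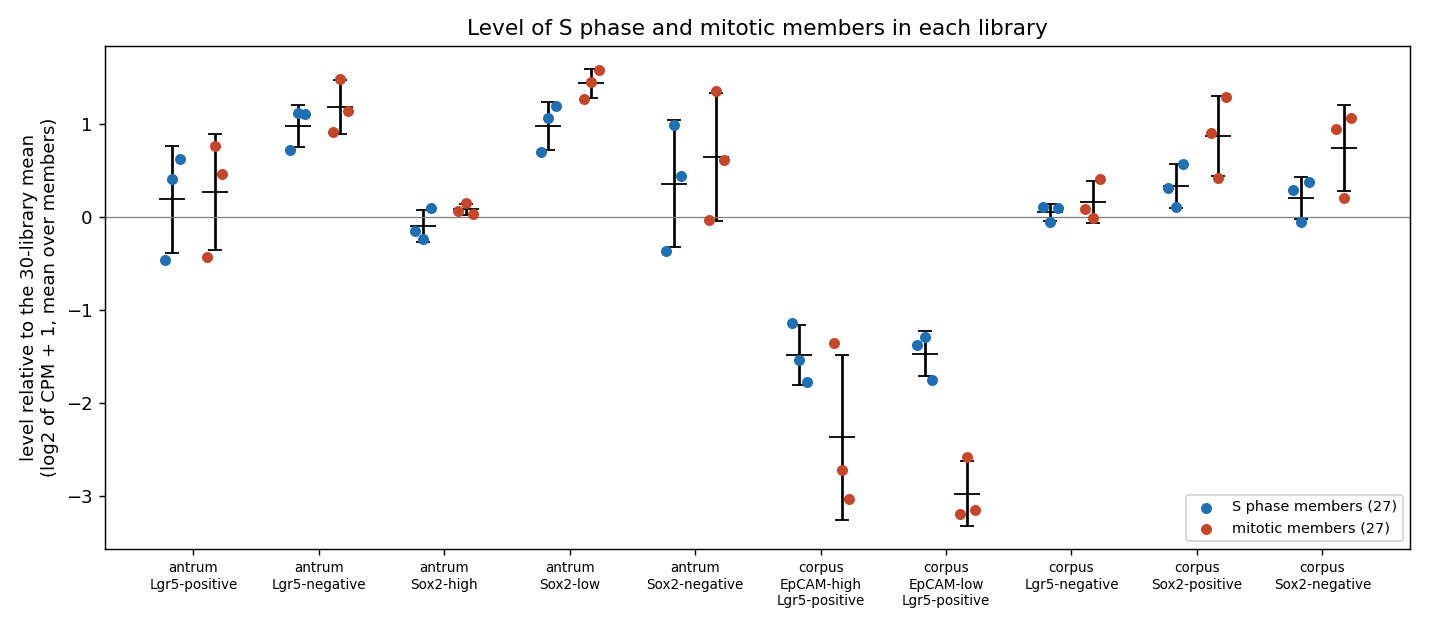
Class levels by library and gate, in log2 units relative to each gene's mean over the 30 libraries; points are libraries, with the mean and SD of 3. Both classes are lowest in the corpus EpCAM-sorted Lgr5-positive gates, and the mitotic level lies lower there than the S phase level.

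The members differed in where they peaked. Of the S phase members, 15 had their highest mean in antral Lgr5-negative cells, 11 in Sox2-low cells and 1 (Blm, a RecQ helicase) in EpCAM-low cells. Of the mitotic members, 25 were highest in Sox2-low cells and 2 in antral Lgr5-negative cells. Lowest means fell in EpCAM-low cells for 17 S phase and 23 mitotic members, in EpCAM-high cells for 9 and 4, and in antral Lgr5-positive cells for Blm. The range over gates was larger for mitotic members (median 4.51 on the log2 scale, 3.09 to 6.13) than for S phase members (median 3.25, 0.90 to 5.16). The S phase extremes were Fen1 (0.90), whose counts were low in every library, and Blm (5.16), highest in EpCAM-low cells. In bulk libraries, fewer dividing cells and less of these RNAs per cell cannot be told apart.

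**Figure D2:**
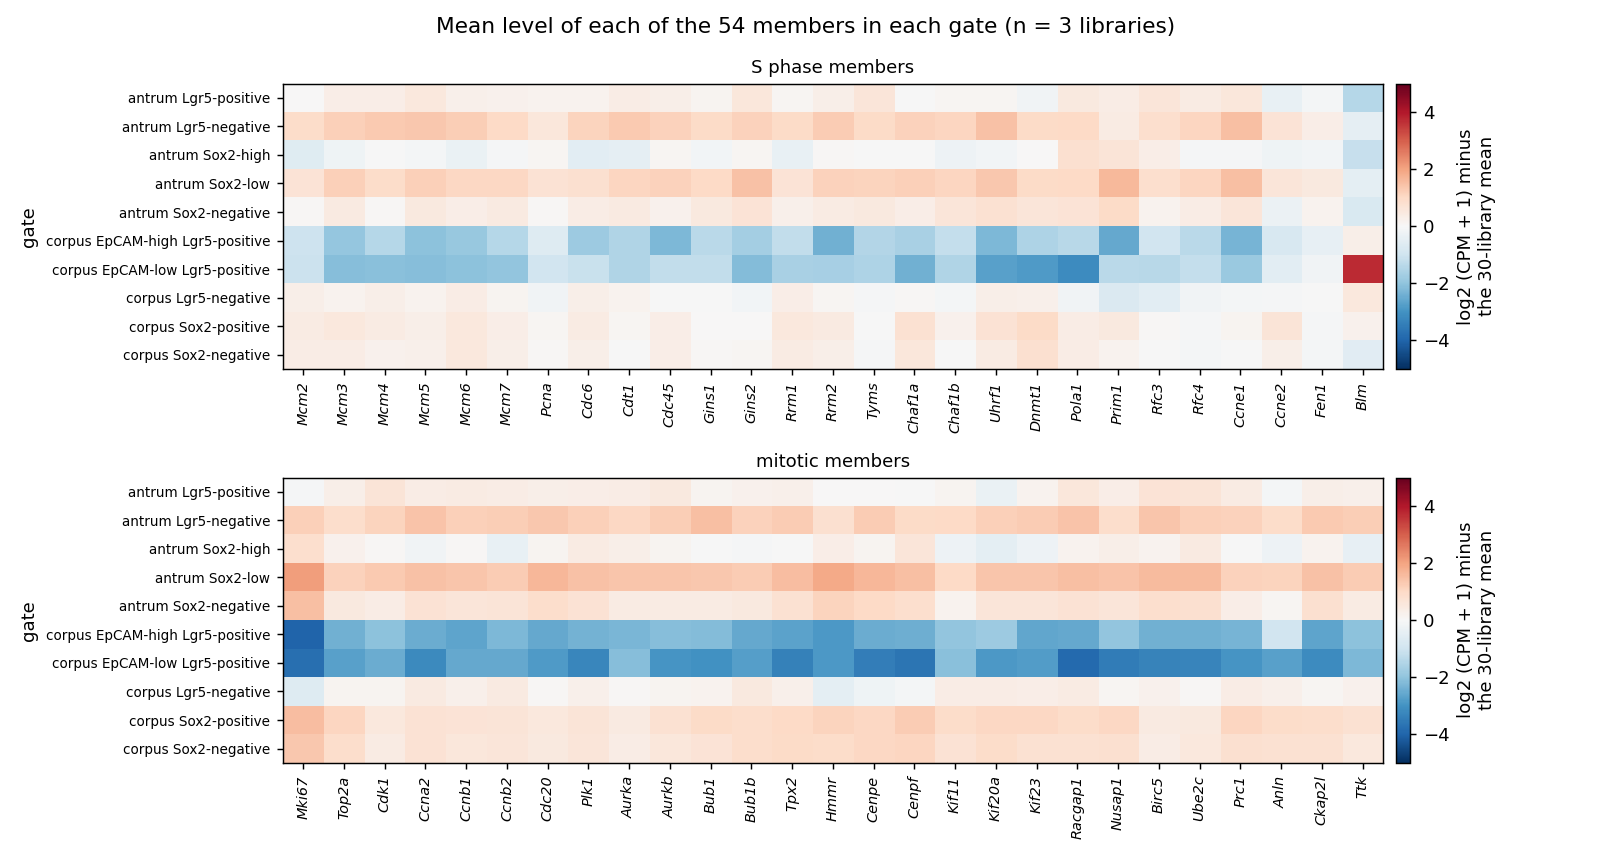
Mean level of each of the 54 members in the 10 gates (n = 3 libraries each), in log2 units relative to the gene's mean over the 30 libraries. Almost all members are low in both EpCAM-sorted gates, and Blm is high in EpCAM-low cells.

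The balance of the classes was compared within libraries, where scaling cancels. Reads on mitotic members per read on S phase members were 0.940, 0.407 and 0.398 in EpCAM-high cells, 0.257, 0.310 and 0.284 in EpCAM-low cells and 1.02, 1.03 and 1.24 in corpus Lgr5-negative cells. Other gates lay between 0.927 and 1.73. EpCAM-high library 1 was alone in its group in reaching that range. Reads on Blm weighed on this ratio in EpCAM-low cells, where they made up 30.3, 35.9 and 25.4% of S phase reads, against 2.45 to 3.99% in EpCAM-high cells and 0.880 to 1.67% in corpus Lgr5-negative cells. Without Blm the ratio was 0.369, 0.484 and 0.381 in EpCAM-low cells and 0.963, 0.419 and 0.414 in EpCAM-high cells. All of these lay below the corpus Lgr5-negative libraries (1.03 to 1.25). On the level scale, the mitotic minus the S phase level was -1.50 ± 0.28 in EpCAM-low and -0.89 ± 0.58 in EpCAM-high cells, and between 0.08 and 0.54 in the other 8 groups. These are descriptions of the class sums, with no test. The mitotic members together took 21.7 to 25.4 RPM in EpCAM-low cells and 72.5 to 374 in EpCAM-high cells, against 704 to 1047 in corpus Lgr5-negative cells. The S phase members took 70.0 to 98.7 in EpCAM-low, 182 to 398 in EpCAM-high and 686.5 to 942 in corpus Lgr5-negative cells. Unlike the ratio, RPM depends on the library total, of which 10 genes took 75.8 to 88.2% in EpCAM-low cells.

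**Figure D3:**
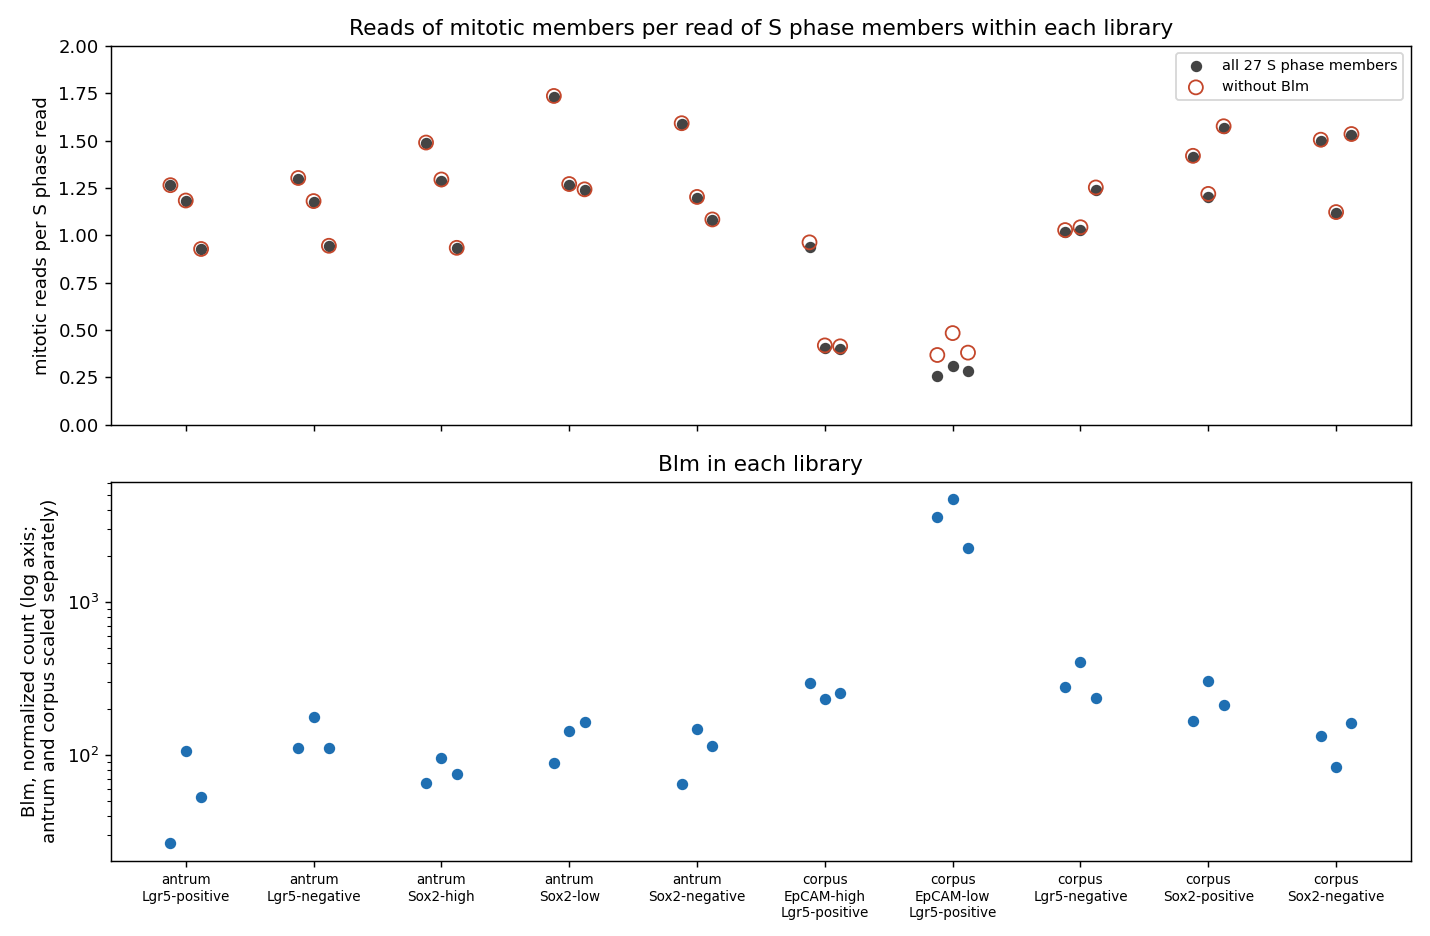
Reads on mitotic members per read on S phase members in each library, and the normalized counts of Blm by gate. EpCAM-low libraries hold 0.257 to 0.310 mitotic reads per S phase read and 2239 to 4708 normalized counts of Blm, above every other gate's libraries; antrum and corpus counts were scaled separately.

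In the corpus, most members were lower in EpCAM-low Lgr5-positive than in Lgr5-negative cells. By limma on log2(normalized count + 1), with an adjusted p under 0.05, 47 of 54 members were lower (21 S phase and 26 mitotic) and 1, Blm, was higher. Over all genes tested, 18% were lower and 12.9% higher. The median log2 fold change was -3.57 for mitotic and -1.64 for S phase members, against -0.19 for all genes. Groups did not overlap, with EpCAM-low cells lower, for 49 members, against 28.7% of all genes. The members not called were Cdc6, Prim1, Rfc4, Ccne2, Fen1 and Ttk.

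The members were then grouped by what they do, a grouping made after the values were seen. The 6 subunits of the MCM helicase, which opens the DNA, were all lower in EpCAM-low than in Lgr5-negative cells, with log2 fold changes from -2.35 (Mcm4) to -1.26 (Mcm2). Of the loading and firing factors, Cdt1 (-1.73), Cdc45 (-1.25), Gins1 (-1.51) and Gins2 (-2.35) were lower. The nucleotide supply genes Rrm1 (-1.85), Rrm2 (-1.64), both of ribonucleotide reductase, and Tyms (-1.40), thymidylate synthase, were lower too. The 4 genes of chromatin assembly and methylation were lower as well, from -3.26 (Uhrf1) to -1.37 (Chaf1b). The enzymes of strand synthesis ranged widest. Pcna (-0.66) and the clamp loader subunit Rfc3 (-0.81) were lower by less. Fen1, the flap nuclease, had -0.15 and was not called. Its counts were low: 27.2, 28.0 and 18.7 in EpCAM-low cells and 33.6, 15.2 and 38.6 in Lgr5-negative cells. Pola1 had a fitted value of -6.19 with 0 reads in EpCAM-low libraries 1 and 3, which sets no bound. Of the mitotic members, Cdk1 (-2.58) and its cyclins Ccna2 (-3.74), Ccnb1 (-2.92) and Ccnb2 (-3.00) were lower. So were the kinases Plk1 (-4.20), Aurka (-2.24), Aurkb (-3.28), Bub1 (-5.88) and Bub1b (-3.46), while Ttk had -3.38 and was not called. EpCAM-low library 1 held 0 reads for Bub1, Tpx2, Cenpf and Racgap1 as well. Leaving out 1 library lost the call of Pcna in 6 of 6 cases, and in at least 1 case those of Mcm2, Cdt1, Cdc45, Gins1, Rrm2, Rfc3, Ccne1, Aurka, Hmmr, Kif23, Prc1, Racgap1, Tpx2 and Mki67.

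Single members show the size. Dnmt1, the maintenance DNA methyltransferase, had 144, 161 and 206 normalized counts in EpCAM-low cells and 1318, 1582 and 1596 in Lgr5-negative cells. All EpCAM-low libraries lay far below, with a log2 fold change of -3.14 (SE 0.24, adjusted p = 0.000229, limma). Mcm7, of the replicative helicase, had 393, 476 and 512 in EpCAM-low cells and 2281, 1538 and 1780 in Lgr5-negative cells, without overlap (log2 fold change -2.01, SE 0.26, adjusted p = 0.000929). Cenpe, a kinetochore motor, had 5.83, 14.0 and 12.5 normalized counts in EpCAM-low cells against 179, 452 and 470 in Lgr5-negative cells. It fell furthest of the 3 mitotic members with the smallest p (log2 fold change -4.92, SE 0.56, adjusted p = 0.000558). Anln, a cytokinesis scaffold, fell with 95.3, 73.6 and 90.6 against 975, 621 and 860 (log2 fold change -3.21, SE 0.37, adjusted p = 0.000622). Kif20a, a cytokinesis kinesin, had 64.2, 123 and 53.1 in EpCAM-low cells and 962, 760 and 988 in Lgr5-negative cells (log2 fold change -3.57, SE 0.46, adjusted p = 0.000968). The groups did not overlap for these genes. Mki67, the proliferation marker, had 7.78, 38.5 and 31.2 in EpCAM-low cells and 142, 431 and 1106 in Lgr5-negative cells (log2 fold change -4.19, SE 1.31, adjusted p = 0.0363). Pcna, the sliding clamp, had the smallest change of the called members: 570, 501 and 622 in EpCAM-low cells, against 1027, 798 and 864 (log2 fold change -0.66, SE 0.22, adjusted p = 0.0432).

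Blm, whose helicase resolves recombination intermediates, went the other way. It had 3617, 4708 and 2239 normalized counts in EpCAM-low cells and 278, 404 and 235 in Lgr5-negative cells, with no overlap. The log2 fold change was 3.49 (SE 0.30, adjusted p = 0.000229), and the call held in each of the 6 leave-outs. With scaling by total reads, Blm in corpus EpCAM-low Lgr5-positive vs Lgr5-negative cells had a log2 fold change of 1.5 (adjusted p = 0.000483), where the median of all genes was -2.09, that of S phase members -3.63 and that of mitotic members -5.51. No exon of Blm overlaps another gene in the annotation used here. Marker lists of other cells moved in the same comparison. Chief markers summed to 408813 to 489213 RPM in EpCAM-low cells and 246603 to 295238 in Lgr5-negative cells, with 3 of the 4 tested called higher and Pga5 lower, and parietal markers (2 of 2 higher) to 4353 to 21732 in EpCAM-low cells and 1799 to 2431 in Lgr5-negative cells. The endocrine sum was 80.8 to 95.6 in EpCAM-low cells, with Tph1 at 0, and 7669 to 12233 in Lgr5-negative cells (6 of 8 lower). The pit sum was 686 to 1985 in EpCAM-low cells and 12457 to 42089 in Lgr5-negative cells (3 of 4 lower), and the neck sum 48.7 to 160 in EpCAM-low cells and 2568 to 4633 in Lgr5-negative cells (2 of 2 lower). The tuft sum was 14.5 to 81.5 in EpCAM-low cells and 394 to 803 in Lgr5-negative cells (4 of 5 lower). The part of these cells in the members' values was not tested.

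EpCAM-high Lgr5-positive cells were also lower in most of these genes, set against the same Lgr5-negative libraries, so their values and those above are not independent. By limma 37 members were lower (20 S phase and 17 mitotic) and 0 higher, against 10.5% of all genes lower. All 54 fold changes were negative, with medians of -1.75 for S phase and -2.75 for mitotic members and -0.06 for all genes. Groups did not overlap for 50 members, against 25.2% of all genes. The S phase members not called were Pcna, Pola1, Prim1, Rfc3, Ccne2, Fen1 and Blm. The mitotic members not called were Plk1, Bub1, Tpx2, Hmmr, Cenpf, Kif23, Racgap1, Nusap1, Prc1 and Ttk.

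The MCM subunits were again all lower, from -2.28 (Mcm5) to -1.32 (Mcm2), as were the 5 loading and firing factors, from -2.92 (Cdc45) to -1.75 (Gins1), the 3 nucleotide supply genes and the 4 genes of chromatin assembly and methylation. Of the 6 strand synthesis genes 1, Rfc4 (-1.22), was called. The calls of Cdc6 and Gins1 were lost in 6 of 6 leave-outs of 1 library, and those of Gins2 and Rfc4 in 5 of 6. Cdk1 (-2.25), Ccna2 (-3.04), Ccnb1 (-3.25) and Ccnb2 (-2.78) were lower. The call of Cdk1 was lost without EpCAM-high library 2 or 3, or without Lgr5-negative library 1 or 3. Those of Anln and Aurka were lost in every leave-out except that of EpCAM-high library 1.

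Dnmt1 had 351, 438 and 536 normalized counts in EpCAM-high cells and 1318, 1582 and 1596 in Lgr5-negative cells, without overlap (log2 fold change -1.78, SE 0.24, adjusted p = 0.00136, limma). Cdc45, of the active helicase, had 20.4, 45.8 and 37.7 against 260, 242 and 261 (log2 fold change -2.92, SE 0.42, adjusted p = 0.00201). Uhrf1, which recruits Dnmt1 to hemimethylated DNA, had 170, 133 and 106 in EpCAM-high cells and 1081, 813 and 801 in Lgr5-negative cells (log2 fold change -2.73, SE 0.45, adjusted p = 0.00333). Every EpCAM-high library lay below every Lgr5-negative one for these 3. For mitotic members, Ckap2l, a spindle protein, had 90.1, 95.1 and 51.0 against 595, 564 and 800 (log2 fold change -3.07, SE 0.52, adjusted p = 0.00398). Bub1b, of the spindle checkpoint, had 280, 69.9 and 42.5 in EpCAM-high cells and 1209, 795 and 992 in Lgr5-negative cells (log2 fold change -3.37, SE 0.62, adjusted p = 0.00542). Ube2c, an ubiquitin-conjugating enzyme of the anaphase-promoting complex, had 666, 204 and 166 against 1721, 1468 and 1763 (log2 fold change -2.54, SE 0.50, adjusted p = 0.00749). For Bub1b and Ube2c EpCAM-high library 1 stood nearest to the Lgr5-negative libraries, and its mitotic level was -1.36, against -2.73 and -3.04 in libraries 2 and 3, while for Ckap2l library 2 was nearest. Mki67 had 0, 20.6 and 29.2 in EpCAM-high cells and 142, 431 and 1106 in Lgr5-negative cells (log2 fold change -5.56, SE 1.31, adjusted p = 0.0157). The 0 reads in EpCAM-high library 1 set no bound on the size of this change. Leaving out Lgr5-negative library 3 left 23 calls, with Mki67, Cdt1, Cdk1 and Top2a among those lost, and leaving out library 1 left 24, with Mcm2, Ccnb2 and Cdk1 among those lost. Tuft markers summed to 5151 to 9444 RPM in EpCAM-high cells against 394 to 803 in Lgr5-negative cells (5 of 5 higher). Endocrine markers summed to 284 to 1144 in EpCAM-high cells against 7669 to 12233 (5 of 8 lower), and neck markers to 562 to 1156 against 2568 to 4633 (2 of 2 lower). The immune sum was 49.2 to 137 in EpCAM-high cells against 14.0 to 20.8, with Cd3e at 0 in both, yet the median log2 fold change of the 5 tested immune markers was -0.95 and 1, Coro1a, was called higher. The part of these cells in the members' values was not tested.

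Between the corpus Lgr5-positive gates few members were called. EpCAM-high cells were higher than EpCAM-low cells for 5 members and lower for 2, while 17.5% of all genes were higher and 14.3% lower. The medians were -0.00 for S phase and 0.73 for mitotic members, against 0.07 for all genes. Higher were Dnmt1 (log2 fold change 1.36, SE 0.24, adjusted p = 0.00226, limma), Anln (1.97), Cenpe (2.18), Cenpf (3.25) and Pola1 (4.83). Pola1, the catalytic subunit of polymerase alpha, had 174, 98.5 and 93.6 normalized counts in EpCAM-high cells and 0, 70.1 and 0 in EpCAM-low cells. Its call (adjusted p = 0.0272) was lost in 5 of 6 leave-outs, by edgeR (adjusted p = 0.129) and by DESeq2 (0.0740). Cenpf, a kinetochore protein, had 74.0, 55.0 and 49.8 in EpCAM-high cells and 0, 14.0 and 15.6 in EpCAM-low cells (adjusted p = 0.0324), and lost its call without any 1 of the EpCAM-high libraries. Leaving out EpCAM-low library 2 gave 11 calls.

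The lower members were Blm and Cdc45. Blm had 296, 234 and 254 normalized counts in EpCAM-high cells and 3617, 4708 and 2239 in EpCAM-low cells, a log2 fold change of -3.69 (SE 0.30, adjusted p = 5.9e-05, limma), and of -1.67 with scaling by total reads. Cdc45 had 20.4, 45.8 and 37.7 in EpCAM-high cells and 140, 105 and 81.2 in EpCAM-low cells (log2 fold change -1.66, SE 0.42, adjusted p = 0.0154), but 0.32 with scaling by total reads. That scaling moved the median of all genes to 1.99 and called 44 members.

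**Figure D4:**
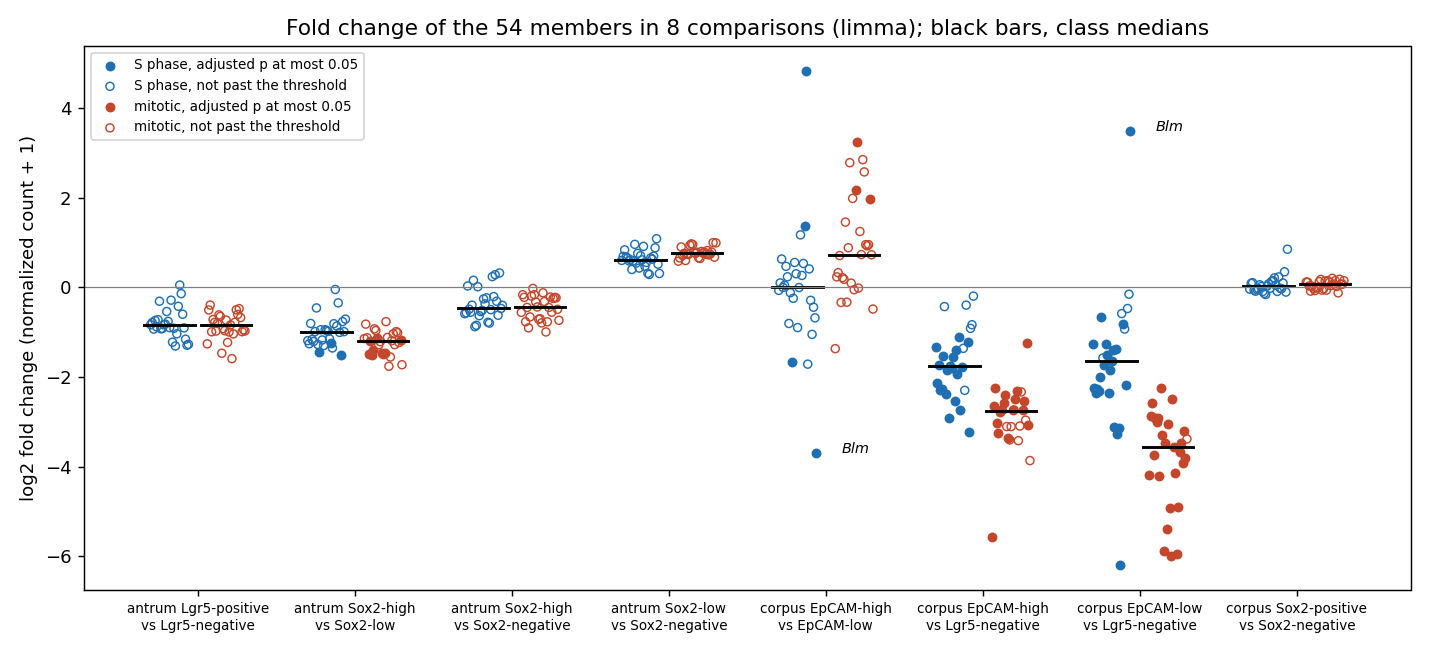
Log2 fold changes of the S phase and mitotic members in the 8 comparisons, from limma on log2(normalized count + 1); points are members, filled where the adjusted p was at most 0.05, and bars mark class medians. The mitotic median is lowest for EpCAM-low against Lgr5-negative cells (-3.57), the S phase median for EpCAM-high against Lgr5-negative cells (-1.75), and both are near 0 for the corpus Sox2 comparison.

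In the antrum, fold changes of Sox2-high against Sox2-low cells were negative for all 54 members, of which 12 passed the test. The median log2 fold change was -0.99 for S phase and -1.20 for mitotic members, against 0.00 for all genes. By limma 12 members were lower: Cdt1, Chaf1b and Ccne1 of the S phase members and Ccna2, Ccnb1, Ccnb2, Cdc20, Aurkb, Tpx2, Hmmr, Cenpe and Ckap2l of the mitotic ones, against 1.76% of all genes. With the sort day as a replicate block 42 were lower (17 S phase and 25 mitotic), against 13.1% of all genes. Groups did not overlap for 37 members, against 12.5% of all genes, and 53 members were lower on all 3 sort days. The 12 calls all went when any Sox2-low library or Sox2-high library 2 or 3 was left out. With the block, leaving out 1 library gave 22 to 46 calls.

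Chaf1b, of the chromatin assembly factor that follows the fork, had 615, 418 and 493 normalized counts in Sox2-high cells and 1268, 1131 and 1189 in Sox2-low cells (log2 fold change -1.25, SE 0.25, adjusted p = 0.0187, limma). Ccne1 had 308, 171 and 263 against 767, 582 and 711 (log2 fold change -1.50, SE 0.34, adjusted p = 0.0293). Cdt1, the licensing factor, had 277, 265 and 475 in Sox2-high cells and 894, 871 and 899 in Sox2-low cells (log2 fold change -1.44, SE 0.36, adjusted p = 0.0428). The groups did not overlap for these genes, and Cdt1 was not called by edgeR (adjusted p = 0.0526). Cdc20, an activator of the anaphase-promoting complex, had 2598, 2079 and 1580 against 6481, 4950 and 4920 (log2 fold change -1.40, SE 0.28, adjusted p = 0.0209). Tpx2, a spindle assembly factor, had 651, 827 and 675 in Sox2-high cells and 1800, 2028 and 2124 in Sox2-low cells (log2 fold change -1.47, SE 0.31, adjusted p = 0.0248). Hmmr, a spindle-associated receptor, had 738, 504 and 485 against 1608, 1496 and 1639 (log2 fold change -1.48, SE 0.33, adjusted p = 0.0302). The anchors Mcm2 and Mki67 were not called, though their fold changes were close to the class medians (-0.99 and -1.20). Mcm2 had 509, 1307 and 1746 in Sox2-high cells and 1459, 2943 and 3202 in Sox2-low cells, where the groups overlapped (log2 fold change -1.19, SE 0.65, adjusted p = 0.323). Mki67 had 2041, 1127 and 937 against 2643, 2798 and 3136 without overlap (log2 fold change -1.14, SE 0.34, adjusted p = 0.0732). Endocrine markers (8 of 8, none at 0) summed to 106327 to 159291 RPM in Sox2-high cells and 17885 to 32438 in Sox2-low cells, with 5 called higher and Sst lower. Tuft markers summed to 76.7 to 267 in Sox2-high cells and 478 to 1465 in Sox2-low cells (3 of 5 lower, 5 with the block). The pit sum was 4307 to 13779 in Sox2-high cells and 20989 to 41130 in Sox2-low cells (1 of 4 lower, 4 with the block), and the epithelial sum 4755 to 5324 in Sox2-high cells and 9071 to 10664 in Sox2-low cells (1 of 4 lower, 3 with the block). The part of these cells in the members' values was not tested.

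Against Sox2-negative cells, Sox2-high cells had negative fold changes for 48 members, with medians of -0.47 for S phase and -0.45 for mitotic members and 0.02 for all genes. Calls numbered 0 by limma, 0 by edgeR and 1 by DESeq2, and 5 members had an unadjusted p under 0.05; limma called 0.724% of all genes lower. With the sort day as a replicate block 3 were lower, against 4.33% of all genes: Chaf1b (adjusted p = 0.0454), Ccnb2 (0.0295) and Kif20a (0.0305). The sort days differed: class medians were 0.28 and 0.22 on day 1, -1.18 and -1.06 on day 2 and -0.32 and -0.54 on day 3, for S phase and then mitotic members. Sox2-low cells had positive fold changes against Sox2-negative cells for all 54, with medians of 0.62 and 0.76. By sort day they were 1.11 and 1.25 on day 1, 0.04 and 0.13 on day 2 and 0.67 and 0.87 on day 3, for S phase and then mitotic members. Calls numbered 0 by limma (0% of all genes higher), edgeR and DESeq2, and 11 members had an unadjusted p under 0.05. Groups did not overlap, with Sox2-low cells higher, for 20 members, against 5.07% of all genes. Aurkb, the chromosomal passenger kinase, had 2620, 1875 and 2093 normalized counts in Sox2-low cells and 812, 1621 and 1039 in Sox2-negative cells (log2 fold change 0.97, adjusted p = 0.576). The 3 antral Sox2 comparisons share libraries in pairs. Endocrine markers reached 206242 and immune markers 542 RPM in a Sox2-negative library, and their part was not tested.

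Antral Lgr5-positive cells had negative fold changes against Lgr5-negative cells for 53 of 54 members, Prim1, the primase subunit, being the exception (0.05). The medians were -0.83 for S phase and -0.84 for mitotic members, against -0.04 for all genes. By limma 0 members were called, as were 0% of all genes lower. The same fit called 0 of 3 stem and gate markers, Lgr5 among them, and 0 of 4 chief markers. The 0 calls by limma are thus no evidence that the members did not change. An unadjusted p under 0.05 was found for 11 members, and edgeR and DESeq2 called 0 members. With the sort day as a replicate block 4 were lower, against 0.669% of all genes: Uhrf1 (-1.31, adjusted p = 0.049972), Dnmt1 (-1.04, 0.0402), Tpx2 (-0.97, 0.0358) and Kif23 (-1.04, 0.0495). On all 3 sort days 49 members were lower, and groups did not overlap for 16, against 6.86% of all genes.

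Ccne1 had 322, 329 and 462 normalized counts in Lgr5-positive cells and 744, 687 and 632 in Lgr5-negative cells, without overlap (log2 fold change -0.90, SE 0.29, adjusted p = 0.480, limma). Ccnb2, a mitotic cyclin, had 1823, 2124 and 2344 against 4213, 3440 and 3193 (log2 fold change -0.78, SE 0.27, adjusted p = 0.531), also without overlap. Mcm2 had 700, 1995 and 2681 in Lgr5-positive cells and 1759, 3310 and 3637 in Lgr5-negative cells, where day 1 was lowest in both groups and the groups overlapped. The day medians of the fold changes were -1.26 and -1.21 on day 1, -0.74 and -0.77 on day 2 and -0.35 and -0.45 on day 3, for S phase and then mitotic members. Chief markers summed to 102280 to 190435 RPM in Lgr5-positive cells and 8199 to 17281 in Lgr5-negative cells, neck markers to 18224 to 56803 in Lgr5-positive cells and 7221 to 11797 in Lgr5-negative cells. The median log2 fold change of the 2 parietal markers was 4.98, and both were higher with the block. The part of these cells was not tested.

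Corpus Sox2-positive cells were close to Sox2-negative cells in both classes. Limma, edgeR, DESeq2 and the fit with the block each called 0 members, while limma called 1.7% of all genes higher and 8.02% lower. The medians were 0.02 for S phase and 0.07 for mitotic members, against 0.01 for all genes, and fold changes ran from -0.16 to 0.85. Mki67 had 1470, 1429 and 3090 normalized counts in Sox2-positive cells and 2162, 1016 and 2303 in Sox2-negative cells. At an unadjusted p under 0.05 stood 1 member, Blm, with 166, 304 and 211 in Sox2-positive cells and 133, 83.5 and 162 in Sox2-negative cells (log2 fold change 0.85, unadjusted p = 0.0228, adjusted p = 0.150).

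The effects of the Lgr5 gate were compared between tissues by limma over the 15 libraries of the Lgr5-DTR-GFP line. These tissue differences used log2(CPM + 1) with scaling across both tables, not log2(normalized count + 1). Their sizes are therefore not differences of the fold changes above. For members with few reads, as in EpCAM-low cells, the added 1 shrinks the effect. The antral effect minus the corpus EpCAM-low effect was called for 6 members. It was positive for Ube2c (2.71, adjusted p = 0.0109), Pola1 (2.23, 0.0218), Birc5 (2.77, 0.0238), Ckap2l (2.06, 0.0350) and Nusap1 (2.83, 0.0478), that is, lower relative to Lgr5-negative cells in the corpus than in the antrum, against 4.17% of all genes. It was negative for Blm (-4.11, adjusted p = 0.000402), against 1.33% of all genes. The class medians were 0.69 for S phase and 2.06 for mitotic members. With the block 26 members were called, with both directions counted together. Of all genes 9.84% were called higher with the block, and the share called lower is not reported here. Set against the EpCAM-high effect, 0 members were called by limma (3.27% of all genes higher) and 13 with the block, all positive, against 7.18% of all genes; medians were 0.65 and 1.63. For Sox2 the antral Sox2-low effect minus the corpus Sox2-positive effect was called for 0 members, against 0.307% of all genes higher and 0.0384% lower, with medians of 0.66 and 0.75.

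Other cell cycle genes were read against the share of all genes called, 10.5% lower and 10.7% higher in EpCAM-high against Lgr5-negative cells, and 18% lower and 12.9% higher in EpCAM-low against Lgr5-negative cells. Of 15 tested genes of cycle entry and arrest, EpCAM-high cells had 3 higher than Lgr5-negative cells, the kinase inhibitors Cdkn1a (log2 fold change 1.79), Cdkn1b (0.80) and Cdkn2c (1.23), and 6 lower, among them Myc (-2.35), Ccnd1 (-1.65) and Ccnd2 (-1.38). EpCAM-low cells had 2 higher, Cdkn1c (2.10) and Ccnd2 (1.22), and 5 lower, among them Myc (-1.64), Ccnd1 (-1.64) and Cdkn2d (-1.52). Of 10 cell cycle transcription genes, EpCAM-high cells had 4 lower (Foxm1 -3.20, Mybl2 -2.75, E2f1 -2.40 and E2f4 -0.75) and EpCAM-low cells 3 (E2f7 -4.98, Foxm1 -2.99 and E2f4 -0.52). Of 14 further replication genes, 2 were lower in EpCAM-high cells, Tk1 (-2.49) and Lig1 (-1.82), a share near that of all genes, and 9 in EpCAM-low cells. Of 13 further mitosis genes, 6 were lower in EpCAM-high cells and 9 in EpCAM-low cells. Between these gates, EpCAM-high cells had 4 of 14 replication genes (Orc1, Orc6, Rpa2 and Rfc5) higher than EpCAM-low cells. Of 13 mitosis genes 4 were higher (Cenpa, Cdca8, Cdc25c and Kif2c), with 0 lower in either list. Of 15 entry and arrest genes 6 were higher and 4 lower, and of 10 transcription genes 1 (Lin54) was lower. Over all genes 17.5% were higher and 14.3% lower in EpCAM-high than in EpCAM-low cells. In Sox2-high against Sox2-low cells, Myc (-1.11), E2f7 (-2.10), Rfc5 (-1.22), Nuf2 (-1.79), Mad2l1 (-1.31), Cdca8 (-1.35) and Cdc25c (-1.72) were lower, against 1.76% of all genes. With the block, 6 of 15 entry and arrest, 8 of 10 transcription, 11 of 14 replication and 12 of 13 mitosis genes were lower and 1 entry and arrest gene was higher, against 13.1% of all genes lower. In corpus Sox2-positive cells Cdkn1c was higher than in Sox2-negative cells (log2 fold change 1.12, SE 0.15, adjusted p = 0.00181, limma).

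Some mitotic members left their class in certain libraries. They were chosen after their values were seen. Within gates, Mki67 had the largest SD on the log2 scale (1.07), followed by Prim1 (0.95), Cenpf (0.74), Hmmr (0.74) and Cenpe (0.72), against 0.43 for the median member. Antral Lgr5-positive library 3 had 96.8 normalized counts of Mki67, against 1452 and 1676 in libraries 1 and 2, while Top2a, the topoisomerase that untangles chromosomes, had 1974, against 1673 and 2656. Relative to the median mitotic member, Mki67 was at -3.07 there, Cenpf at -2.20 and Cenpe at -1.94, on the log2 scale. Antral Lgr5-negative library 3, sorted on the same day, had Mki67 at -1.12, Cenpf at -1.07, Cenpe at -0.66 and Hmmr at -1.44. In EpCAM-high library 1, Mki67 had 0 reads and lay at -3.49, with Top2a at -0.21. In corpus Lgr5-negative library 1, Mki67 was at -2.41 and Hmmr at -2.63. The 2 corpus libraries also shared a sort day. EpCAM-low library 1, sorted that day too, had Mki67 at -0.94 and Hmmr at -0.04. In EpCAM-low libraries 2 and 3, Mki67 lay at -1.02 and -0.44 and Hmmr at 0.35 and 0.05.

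**Figure D5:**
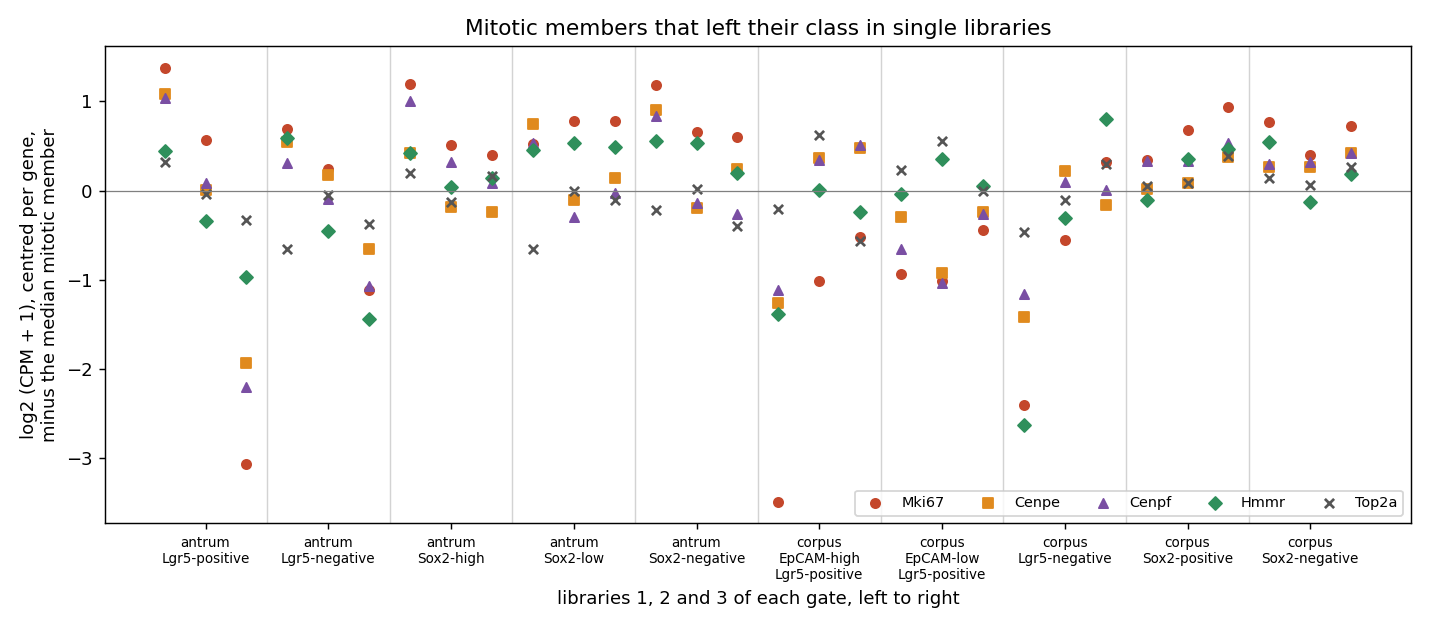
Deviation of mitotic members from the median mitotic member in each library, on the log2 scale. Mki67, Cenpe, Cenpf and Hmmr lie low in certain libraries. Mki67 is at -3.07 in antral Lgr5-positive library 3 and -3.49 in EpCAM-high library 1, where Top2a is at -0.33 and -0.21.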

How the data were processed

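The authors deposited normalized counts (a signal: whole-read counts over each library's size factor) in 1 table per tissue. The authors' deposited comparison tables hold log2 fold changes and p-values. Per the submitters' processing notes, STAR, HTSeq, DESeq2, edgeR and the mm9 build were used; no role, version or strand setting is stated, and 15 of 54 members overlap an opposite-strand exon. Features with no name (433; 0.029 to 0.482% of reads) or a date for a name (25) were left out. Whole reads were recovered for at least 99.9949% of values (tolerance 0.01).

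Comparisons used limma 3.58.1 (trend, robust; R 4.3.3) on log2(normalized count + 1), for genes with at least 10 in 3 libraries of the fit (all 54 members passed in each), with Benjamini-Hochberg adjustment at 0.05 over all genes tested. Groups of a line and tissue were fitted together. Tissue differences and levels used log2(CPM + 1) of recovered reads with TMM scaling. Alternatives were edgeR 4.0.16 and DESeq2 1.42.0 on recovered reads, other scalings and filters, leave-outs and the sort day as a block. Per the deposited sort sheet, equal numbers were sorted on 1 day in 12 of 12 combinations, so they pair the libraries by day. Correlations of deviations between paired libraries were highest for the antral Lgr5 sorts (0.661, 0.673 and 0.576). They ran from 0.126 to 0.586 for the antral Sox2 sorts and from 0.221 to 0.366 for the corpus Sox2 sorts. For the corpus Lgr5 sorts they were near 0, from -0.0563 to 0.159. The fits were tested on simulated data. Members and lists were chosen with earlier results of these data known. Values of every library are given for Mcm2, Pcna, Mki67 and Top2a where they help, and for up to 3 members per class with the smallest p.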

Additional observations from a re-analysis of the deposited data

Results flagged for a closer look

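Of the members, 6 had an Lgr5 effect that differed between the antrum and the corpus EpCAM-low gate by a test of the difference itself (limma, 15 libraries). The antral effect minus the corpus effect, on the log2 scale, was 2.83 for Nusap1, 2.06 for Ckap2l, 2.71 for Ube2c, 2.23 for Pola1, 2.77 for Birc5 and -4.11 for Blm. Pola1 had 0 reads in 2 of the 3 EpCAM-low libraries, and Birc5 ranged from 1690 to 3768 normalized counts over the antral Lgr5-positive libraries.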

How the results depend on the processing

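Counts of called members moved by over 1.5 times as follows. For antral Lgr5 (0), the replicate block gave 4, and with the block edgeR gave 2, TMM scaling 3 and total-read scaling 15; leave-one-out fits with or without the block gave 0 to 33. For Sox2-high against Sox2-low (12), the block gave 42 (edgeR 42, TMM 43, total reads 45), no filter 7, DESeq2 24 and leave-one-out 0 to 46. For Sox2-high against Sox2-negative (0), the block gave 3 (edgeR 2, TMM 3, total reads 3), DESeq2 1 and leave-one-out 0 to 13; for Sox2-low against Sox2-negative (0), leave-one-out gave 0 to 40. For EpCAM-high against EpCAM-low (7), total-read scaling gave 44 and with the block 43, leave-one-out 4 to 11; leave-one-out gave 23 to 40 for EpCAM-high against Lgr5-negative cells (37) and 0 to 6 for corpus Sox2 (0). For the tissue differences, the block gave 13 (EpCAM-high) and 26 (EpCAM-low), and total-read scaling 39 (EpCAM-low). For EpCAM-low against Lgr5-negative cells (48), leave-one-out counts of 35 to 44 stayed within 1.5 times. The block moved no other count of called members by over 1.5 times.

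Total-read scaling moved the level of all 54 members to 1.44 in antral Lgr5-negative, -0.16 in corpus Lgr5-negative, -3.54 in EpCAM-low, 1.55 in Sox2-low and 0.31 in Sox2-high cells; a pseudocount of 10 gave 0.75 in antral Lgr5-negative, -1.30 in EpCAM-low, -1.19 in EpCAM-high, 0.85 in Sox2-low and -0.10 in Sox2-high cells, and median-of-ratios factors 0.07 in Sox2-high cells. The mitotic minus S phase level became -1.20 (total reads) and -0.80 (pseudocount 10) in EpCAM-low, 0.16 in antral Sox2-negative and 0.34 in Sox2-low cells (pseudocount 10). Cdc45 in EpCAM-high against EpCAM-low cells reversed to 0.32 under total-read scaling, with and without the block. In the corpus Sox2 comparison, leave-one-out values changed sign for Kif23 (-0.00 to 0.36), Prc1 (-0.06 to 0.45) and Bub1 (-0.17 to 0.42), none of them called. The cause was not tested.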

Other observations

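The authors' deposited table named for Lgr5-positive against Lgr5-negative antral cells lists log2 fold changes of -4.44 for Lgr5 and 0.66 for Mki67, so its sign runs as negative over positive cells. The authors' deposited table named for EpCAM lists -1.20 for Epcam, 3.10 for Pgc, -4.41 for Mki67 and 3.93 for Blm, which is not the direction of Epcam in EpCAM-high over EpCAM-low libraries, and it was not used as that comparison. The authors' table for Sox2-high against Sox2-low antral cells lists 2.15 for Sox2, so its sign runs as named. Its adjusted p was under 0.05 for 1 of 27 mitotic members, Ccnb2 (lower), and for 0 of 26 S phase members. The class medians there were -0.965 for S phase and -1.203 for mitotic members.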
